A study of Mus musculus with 45 samples.

Results

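The change that neuronal transcription underwent during 1 h of glutamate spillover was measured by comparing 2 groups of libraries, 10 of the 45 in the series. The 1 h Bic group held 5 libraries of neurons treated with bicuculline (Bic, 50 µM), which blocks GABA type A receptors and induces AP firing, for 1 h. The LP TBOA group held 5 libraries of neurons that received the same 1 h of Bic and then DL-TBOA (50 µM) for 1 h more with Bic still present, so that the 2 groups mark the moment TBOA was added and the end of the hour with it. All were hippocampal primary neurons from newborn C57BL/6N mice, which in both groups had been plated in medium with rat serum, received the mitosis inhibitor AraC on day 3 and, by the labels, were treated on day 10 or 11 in vitro. Each of 5 culture preparations, numbered 1, 3, 6, 7 and 8, gave 1 library to either group, and the libraries were compared within preparations. The same preparations also gave the 5 untreated Control, 5 0.5 h Bic and 5 2 h Bic libraries that are used below for orientation. A library pools all cells of a dish, so fewer cells of a type and less RNA per cell cannot be told apart.

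Glutamate released at synapses is cleared by transporters of the Slc1a family on astrocytes and neurons. TBOA blocks these transporters, so that glutamate spills over and reaches NMDA receptors outside the synapse while Bic keeps the network firing. AP firing itself is known to induce a wave of immediate early genes, many of them transcription factors such as Fos and Npas4, followed by effector genes that act at synapses or are secreted. The question the comparison addresses is which of these genes still rose once spillover had begun.

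Transcription went on changing in both directions during the hour with TBOA. Of 15616 genes tested, 911 (5.83%) were higher and 1230 (7.88%) lower after TBOA than at 1 h Bic in the same preparation, by edgeR's quasi-likelihood test with preparation as a block and a Benjamini-Hochberg adjusted p under 0.05 (called genes). Most changes were small, with a median log2 fold change of 0.333 among the higher and -0.313 among the lower genes with at least 1 CPM (the read count scaled by TMM to a common library size). Among those 13564 genes, 37 rose by more than 1 on the log2 scale and 8 fell by more than 1. In 796 of the 878 higher genes at this level and in 1172 of the 1212 lower ones, all 5 preparations moved the same way. The largest rises were those of genes induced by activity, among them Pim1, Homer1 and Atf3, and 10 of the 12 largest falls were those of zinc finger genes. Without the block, 406 genes were higher and 702 lower. Leaving out preparation 1 gave 474 higher and 620 lower genes, leaving out preparation 7 gave 741 lower genes, and leaving out preparation 6 gave 1287 higher and 1459 lower genes. The TBOA library of preparation 6 was the shallowest, and the deviations of its 2 libraries from their group means correlated at -0.211, beside 0.404 to 0.593 in the other preparations. Whether either has a part in these counts was not tested. The libraries held between 17229802 and 44206367 gene counts at 1 h Bic and between 11455443 and 81129276 with TBOA.

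**Figure D1:**
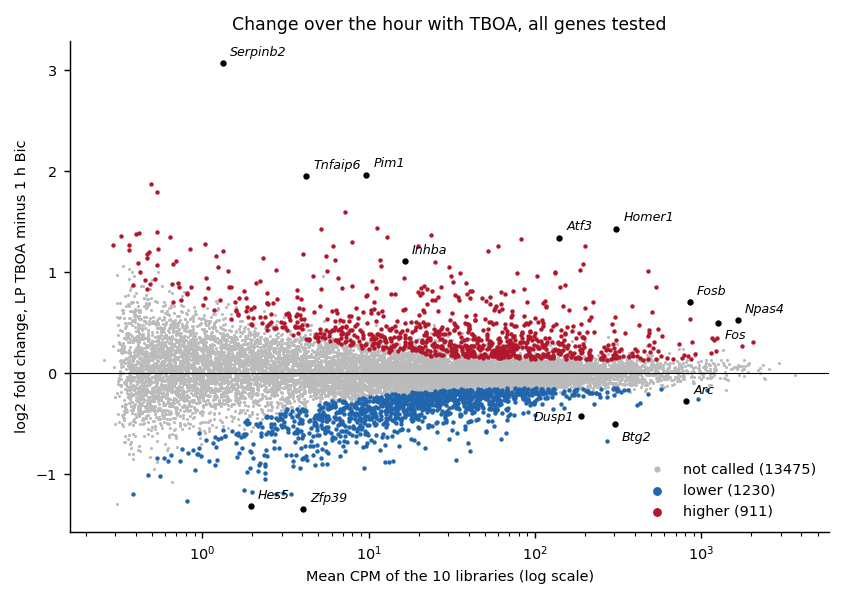
Log2 fold change from 1 h Bic to LP TBOA (vertical) against the mean CPM of the 10 libraries (horizontal, log scale) for the 15616 genes tested. Red points are the 911 higher genes, blue points the 1230 lower genes, grey points the genes not called and black points the named genes; Serpinb2, Pim1, Tnfaip6 and Homer1 stand at the top and Zfp39 and Hes5 at the bottom.

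Among genes with a mean of at least 1 CPM, the largest rise was that of Serpinb2 (chr1:107511423-107535478, GRCm38), which encodes plasminogen activator inhibitor type 2. In preparations 1, 3, 6, 7 and 8, in this order here and below, its level was 0.179, 0.0639, 0.162, 0.0765 and 1.18 CPM at 1 h Bic and 1.49, 1.78, 2.65, 3.34 and 2.41 CPM after TBOA. Preparation 8 alone was above 1 CPM before TBOA, and the 2 groups did not overlap. With means of 0.332 CPM before and 2.34 CPM after TBOA, Serpinb2 passed the limit of 1 CPM only through the TBOA libraries. Its place at the head of the rises rests on levels near the floor. The log2 fold change was 3.07 ± 0.44 (SE, n = 5 pairs, adjusted p = 0.000596 by edgeR). Pim1 (chr17:29490753-29496112), which encodes a serine/threonine kinase, rose from 3.34, 3.03, 3.01, 4.51 and 6.21 CPM to 12.2, 12.7, 16.8, 15.5 and 19.6 CPM. Each preparation with TBOA was above every preparation at 1 h Bic. The log2 fold change of Pim1 was 1.97 ± 0.11 (adjusted p = 8.04e-07, edgeR). Tnfaip6, which encodes a secreted hyaluronan-binding protein, rose from 1.79, 1.25, 2.30, 1.87 and 1.605 CPM to 5.83, 8.04, 7.85, 7.63 and 4.09 CPM. Here too the groups were apart, and the rise was 1.95 ± 0.16 (adjusted p = 8.52e-06, edgeR).

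Homer1 (chr13:93299635-93405129), which encodes a scaffold protein of the postsynaptic density and whose short form is made on activity, had the highest CPM of the 12 genes with the largest rises. It went from 160.0, 127, 182, 180.2 and 187 CPM to 444, 440.1, 429, 463 and 458 CPM, so that levels that had differed by preparation at 1 h Bic lay between 429 and 463 CPM with TBOA. Its log2 fold change was 1.43 ± 0.07 (adjusted p = 5.05e-07, edgeR), and the counts do not separate its short from its long form. Atf3, a stress- and activity-induced transcription factor, rose from 78.1, 53.8, 83.7, 63.6 and 130.3 CPM to 186, 208, 198, 189 and 211 CPM. Preparation 8 started highest and gained least, and the groups did not overlap (log2 fold change 1.34 ± 0.13, adjusted p = 3.24e-05, edgeR). The other large rises, all with 5 of 5 preparations higher, were those of Stil, a centriole protein (log2 fold change 1.59), the zinc finger gene Zfp184 (1.43), the nuclear receptor gene Rorb (1.43), Frmd6, a FERM domain protein (1.37), the transcriptional co-regulator Sertad1 (1.35), Rnf217, a ubiquitin ligase (1.33), and Thbd, which encodes thrombomodulin (1.30). In Thbd alone among these 12 did the groups overlap, since its level in preparation 8 was 1.23 CPM at 1 h Bic and 2.94 CPM after TBOA, below that of the other preparations. Without the block its adjusted p was 0.0719.

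**Figure D2:**
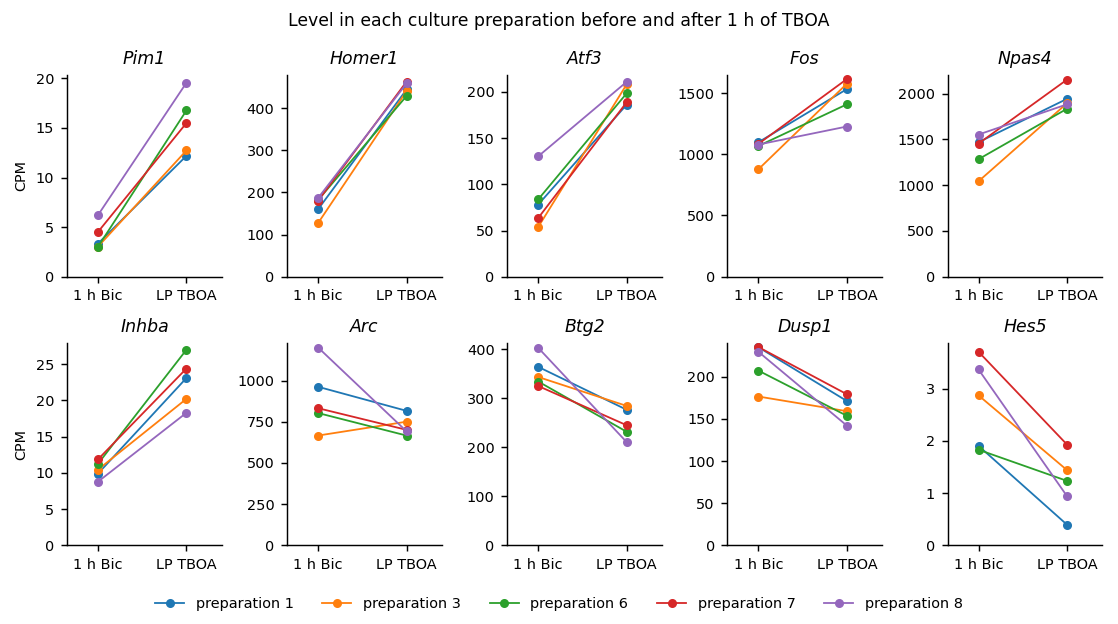
CPM (vertical, linear from 0) at 1 h Bic and after TBOA for 10 genes, with 1 line per culture preparation. Lines of Pim1, Homer1, Atf3, Fos, Npas4 and Inhba rise in 5 of 5 preparations, those of Btg2, Dusp1 and Hes5 fall in 5 of 5, and those of Arc fall in 4 of 5.

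The earliest genes that respond to AP firing could be followed without choosing them on the compared libraries. Between Control and 0.5 h Bic, whose libraries enter neither group, 80 of 14783 genes (0.541%) were higher, and all 80 were tested in the comparison of TBOA with 1 h Bic. During the hour with TBOA, 45 of the 80 (56.2%) rose further, beside 5.83% of all genes, 8 (10%) fell, beside 7.88% of all genes, and 27 were not called. Their median log2 fold change was 0.292, beside 0.000455 over all genes, and the values ran from -0.768 (Mex3b) to 1.34 (Atf3). The 45 make up 4.94% of all higher genes and the 8 make up 0.65% of all lower genes. The 80 were chosen against the same Control libraries, so their level above Control is a description only, and after TBOA 77 of the 80 were called above it. Over all 15330 genes tested against Control, 7.87% were above and 8.20% below. Leaving out any 1 preparation left between 34 and 46 of the 80 higher.

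Fos (chr12:85473890-85477273), the transcription factor most used as a marker of recent activity, rose from 1098, 877, 1067, 1084 and 1079 CPM to 1532, 1576, 1408, 1614 and 1226 CPM. The lowest level with TBOA, in preparation 8, was above the highest at 1 h Bic. The log2 fold change was 0.50 ± 0.07 (adjusted p = 0.000704, edgeR), on top of a level that after TBOA was 5.34 log2 units above Control. Npas4, a transcription factor induced by calcium entry in neurons, rose from 1469, 1042, 1283, 1454 and 1553 CPM to 1943, 1895, 1834, 2153 and 1883 CPM without overlap (log2 fold change 0.53 ± 0.07, adjusted p = 0.000308, edgeR). Fosb, a dimer partner of the Jun proteins, rose by 0.70 ± 0.09 on the log2 scale (adjusted p = 0.00026, edgeR). Nr4a2, an orphan nuclear receptor, rose from a mean of 317 ± 45.9 CPM (SD, n = 5) to 637 ± 42.8 CPM, with all 5 preparations higher.

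Other well-known members of this wave moved less. Egr1, a zinc finger transcription factor, was higher by 0.35 ± 0.08 on the log2 scale (adjusted p = 0.0139, edgeR) in 4 of 5 preparations, and Junb, an AP-1 subunit, by 0.31 ± 0.09 (adjusted p = 0.0329, edgeR) in 4 of 5. In both, the groups overlapped, since preparation 8 was lower after TBOA, and both calls were lost when preparation 1 was left out, with adjusted p values of 0.071 and 0.112. Egr2, a relative of Egr1, was not called, with a log2 fold change of 0.17 ± 0.09 (adjusted p = 0.281, edgeR).

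Of 37 genes listed as transcription factors induced by activity or stress, which include the enzyme gene Tiparp, 23 rose (62.2%), 1 fell (2.7%) and 13 were not called. All 37 were tested. Over all genes 5.83% rose and 7.88% fell, and the median log2 fold change of the list was 0.439. The largest rises in this list after Atf3 were those of Nr4a2 (1.02), Tiparp, an ADP-ribosyltransferase (1.00), and Maff, a small Maf protein (0.99). Jund, an AP-1 subunit and the member with the highest CPM that was not called, had a log2 fold change of 0.22 ± 0.07 (adjusted p = 0.0603, edgeR). It was called higher without preparation 8 (adjusted p = 0.0107, edgeR), with thinned libraries (0.0275), with every gene with a read kept (0.000725) and with DESeq2 and the block (0.0196). With TBOA, 34 of the 37 were above Control, beside 7.87% of all genes.

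The 8 genes induced at 0.5 h that fell during the hour with TBOA included Dusp1, Kcnj2, Btg2, Mbd6, Tob1, Ccn1 and Mex3b. Btg2 (chr1:134075170-134079120), an antiproliferative protein that promotes mRNA decay, fell from 364, 343, 334, 325 and 403 CPM to 276, 284, 231, 245 and 210.3 CPM. No level with TBOA reached the lowest at 1 h Bic, and the log2 fold change was -0.51 ± 0.08 (adjusted p = 0.000822, edgeR). Dusp1, a phosphatase that turns off MAP kinases, fell from 235, 177, 207, 235 and 229.8 CPM to 171, 159, 154, 179 and 142 CPM. Every preparation fell, but the groups overlapped, preparation 3 having started low (log2 fold change -0.42 ± 0.06, adjusted p = 0.000823, edgeR). Ccn1, a secreted matrix protein and SRF target, fell by 0.67 on the log2 scale from a mean of 330.1 ± 39.1 to 212 ± 53.5 CPM (SD, n = 5). Btg2, Dusp1 and Ccn1 were still above Control after TBOA, by 3.55, 3.16 and 4.71 log2 units, whereas Mbd6 (0.32) and Mex3b (-0.01) were not called against it. The same hour without TBOA lowered Btg2, Dusp1 and Ccn1 too, with log2 differences between 2 h and 1 h Bic of -0.54, -0.31 and -0.70.

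Among genes with a matched promoter, a larger share of rising genes than of genes not called held an element of activity-driven transcription. The share of falling genes was slightly below that of genes not called, and none of these differences was tested. The cAMP response element (CRE), TGACGTCA, and its half-site, TGACG, are bound by CREB, which signals from synapses activate, and were searched on both strands in the 250 bases before each start in RefSeq promoters (GRCm38.p6). Of the 701 higher genes with a promoter matched by symbol, 39.8% held a half-site and 5.56% a whole CRE, beside 27.4% and 2.42% of 990 lower genes and 29.5% and 2.9% of 9839 genes that were not called. Over all 32851 promoter windows, counted singly, the shares were 17.8% and 1.55%, and every CRE is also counted as a half-site. A gene counts if any of its windows holds the element, so genes with more windows can score more often. Shares of genes and of windows, here and below, are thus in unlike units. Among the genes induced at 0.5 h, a half-site was held by 25 of 37 that rose with TBOA (67.6%), by 5 of 7 that fell (71.4%) and by 8 of 19 that were not called (42.1%), numbers too small to order. A whole CRE was held by 10.8%, 28.6% and 21.1% of these. The AP-1 motif, TGANTCA, was held by 8.42% of the higher, 4.34% of the lower genes, 5.36% of those not called and 6.75% of all windows. Many genes were without a match in these windows, among them Pim1 and Inhba.

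The following 4 promoters, 250 bases each up to the start and written in the direction of transcription, are shown because they hold the same element in genes that went opposite ways. Capitals mark the half-sites on either strand. Homer1 (chr13:93303507-93303756, plus strand) and Nr4a2 (chr2:57124004-57124253, minus strand) rose with TBOA and hold 3 and 4 half-sites. Homer1 has 2 promoter windows, and the window shown, which lies inside the gene span given above, was chosen by its count of half-sites. Nr4a2, Btg2 and Dusp1 have 1 window each. Btg2 (chr1:134079156-134079405, minus strand) and Dusp1 (chr17:26508473-26508722, minus strand) fell and each hold a whole CRE, which starts 166 and 143 bases before the start.
Homer1: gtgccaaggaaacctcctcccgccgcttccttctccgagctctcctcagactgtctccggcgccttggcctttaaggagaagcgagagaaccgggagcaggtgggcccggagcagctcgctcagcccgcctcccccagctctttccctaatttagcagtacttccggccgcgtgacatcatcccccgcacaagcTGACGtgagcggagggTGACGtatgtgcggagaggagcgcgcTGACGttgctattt
Nr4a2: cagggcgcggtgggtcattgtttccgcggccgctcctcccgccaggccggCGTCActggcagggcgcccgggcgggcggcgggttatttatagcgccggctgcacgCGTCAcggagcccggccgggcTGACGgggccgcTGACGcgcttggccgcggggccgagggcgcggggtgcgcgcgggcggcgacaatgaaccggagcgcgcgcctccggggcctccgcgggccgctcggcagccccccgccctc
Btg2: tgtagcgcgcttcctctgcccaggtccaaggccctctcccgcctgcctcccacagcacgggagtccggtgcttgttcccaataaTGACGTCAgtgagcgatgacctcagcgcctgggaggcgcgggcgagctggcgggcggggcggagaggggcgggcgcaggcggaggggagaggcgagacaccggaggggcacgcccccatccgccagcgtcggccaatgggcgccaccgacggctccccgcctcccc
Dusp1: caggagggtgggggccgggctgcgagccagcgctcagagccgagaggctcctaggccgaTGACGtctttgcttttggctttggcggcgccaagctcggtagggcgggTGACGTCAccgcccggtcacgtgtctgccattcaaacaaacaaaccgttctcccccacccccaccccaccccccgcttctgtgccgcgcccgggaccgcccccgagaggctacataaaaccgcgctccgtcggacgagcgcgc

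A list named for feedback on kinase signalling, which also holds the kinase gene Pim1, rose more often than it fell. Of its 42 genes, all tested, 22 rose (52.4%), 6 fell (14.3%) and 14 were not called. Over all genes 5.83% rose and 7.88% fell, and the median log2 fold change of the list was 0.29. After Pim1, the largest rises were those of Gem, a small GTPase that restrains calcium channels (from 4.45 ± 0.664 to 8.58 ± 1.495 CPM, log2 fold change 0.94), and of the phosphatases Dusp14 (0.78) and Dusp16 (0.77). Trib1, a pseudokinase that directs ubiquitin ligases, rose by 0.51 ± 0.10 (adjusted p = 0.0048, edgeR), in 5 of 5 preparations. Rgs7bp, the member with the highest CPM that was not called, had a log2 fold change of 0.14.

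Effector genes of the synapse also rose. Of 30 genes of synaptic effectors, 19 rose (63.3%), 2 fell (6.67%) and 9 were not called, beside 5.83% higher and 7.88% lower over all genes. Their median log2 fold change was 0.36. Arl5b, a small GTPase of vesicle traffic, rose from 124, 104, 128, 129 and 145 CPM to 268, 299.7, 244, 264 and 251 CPM. Its groups were far apart, with a log2 fold change of 1.08 ± 0.08 (adjusted p = 6.02e-06, edgeR). Nptx2, a secreted pentraxin that clusters AMPA receptors, rose in each preparation from 31.2, 25.4, 47.0, 32.8 and 72.5 CPM to 46.8, 44.5, 77.3, 62.2 and 95.6 CPM. The groups overlapped because preparations differed in their starting level, which the pairing takes into account (log2 fold change 0.68 ± 0.07, adjusted p = 4.33e-05, edgeR), and without the block the adjusted p was 0.185. Nptxr, the receptor of the pentraxins, was not called (log2 fold change -0.04).

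Arc (chr15:74669083-74672570), which encodes a capsid-like protein that removes AMPA receptors from synapses and is an effector often used as a marker of activity, was not called. It went from 963, 666, 803, 833 and 1201 CPM to 816, 751, 666, 701 and 692 CPM. Preparation 3 rose, the other 4 fell, and the groups overlapped. The log2 fold change was -0.27 ± 0.10 (adjusted p = 0.0815, edgeR). Arc was called lower without preparation 3 (-0.38, adjusted p = 0.00947, edgeR). It was also called lower over all 5 preparations when every gene with a read was kept (-0.28, adjusted p = 2.37e-07, edgeR). Its level after TBOA was 5.05 log2 units above Control.

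Among secreted and growth factors, 17 of 39 tested rose (43.6%), 2 fell (5.13%) and 20 were not called, beside 5.83% higher and 7.88% lower over all genes. Their median log2 fold change was 0.267. Inhba (chr13:16011851-16031621), which encodes the subunit of activin A, a factor known to protect neurons, rose from 9.89, 10.4, 11.2, 11.9 and 8.77 CPM to 23.1, 20.2, 26.99, 24.4 and 18.3 CPM. The lowest level with TBOA was above the highest at 1 h Bic (log2 fold change 1.11 ± 0.07, adjusted p = 1.23e-06, edgeR). Bdnf, the neurotrophin of activity-dependent survival and plasticity, rose from 173, 135, 190.3, 184 and 194 CPM to 231, 226, 270.3, 255 and 268 CPM, again without overlap (log2 fold change 0.52 ± 0.05, adjusted p = 4.71e-05, edgeR). Pcsk1, the convertase that cuts prohormones, rose by 1.00 ± 0.06 (adjusted p = 8.04e-07, edgeR). Vgf, a neuropeptide precursor and the member with the highest CPM that was not called, had a log2 fold change of 0.24 ± 0.09 (adjusted p = 0.0938, edgeR). Areg, which encodes an EGF receptor ligand, was called higher at only 0.430 CPM before and 0.955 CPM after TBOA (means).

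**Figure D3:**
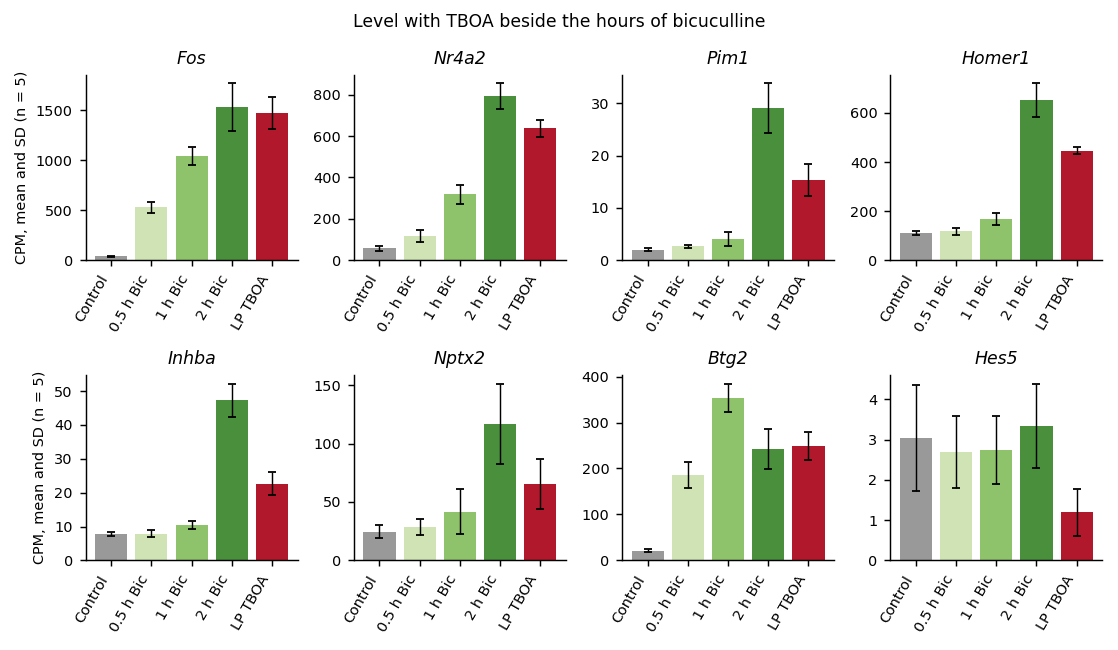
Mean CPM (bars, linear from 0) with SD (n = 5 libraries) for 8 genes in Control, 0.5, 1 and 2 h Bic and LP TBOA. Pim1, Homer1, Inhba and Nptx2 stand between 1 h and 2 h Bic after TBOA, Fos is near its level at 2 h Bic, and Hes5 is lowest after TBOA.

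The same hour was also measured in Bic alone. In that hour, from 1 h to 2 h Bic, 1686 of 15330 genes (11.0%) were higher and 1921 (12.5%) lower. This comparison shares the 1 h Bic libraries with that of TBOA, so its values stand beside the latter without a test between them, and the 2 end points were compared directly. With TBOA, 69 of 15628 genes (0.442%) were above and 348 (2.23%) below 2 h Bic. These counts depend on single preparations. Without preparation 1 they were 8 and 112, without 3 they were 15 and 221, without 6 they were 305 and 619, without 7 they were 44 and 249, and without 8 they were 17 and 219. Without the block they were 7 and 97.

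Several activity genes rose in the hour with TBOA but ended below the level they reached without it. Inhba was at 48.2, 38.5, 49.9, 50.7 and 48.8 CPM after 2 h Bic, above every library with TBOA, and the difference was -1.08 ± 0.07 on the log2 scale (adjusted p = 1.7e-05, edgeR), beside rises over the hour of 1.11 with and 2.17 without TBOA. Pim1 reached 31.3, 21.9, 27.2, 30.5 and 34.5 CPM after 2 h Bic, again above all levels with TBOA, a difference of -0.94 ± 0.08 (adjusted p = 0.0001, edgeR), beside rises of 1.97 with and 2.89 without TBOA. Homer1 reached 750.3, 562, 624, 674 and 649 CPM, and its difference was -0.54 ± 0.05 (adjusted p = 0.000197, edgeR). These 3 genes thus lay between the 1 h and the 2 h Bic levels after the hour with TBOA. Nptx2 was lower in each of the 5 preparations, by 0.86 on the log2 scale, although its groups overlapped (adjusted p = 0.000171, edgeR). Csrnp1, a nuclear protein induced by growth signals, and Bdnf were -0.78 and -0.29 log2 units from 2 h Bic (adjusted p = 2.32e-05 and 0.00499, edgeR), beside rises from 1 h Bic of 0.90 and 0.52 with TBOA and 1.70 and 0.82 without it. Serpinb2 differed by -0.67 ± 0.14 with overlapping groups (adjusted p = 0.0227, edgeR).

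Other genes were not called against 2 h Bic. The difference of Fos was -0.05 ± 0.06 (adjusted p = 0.681, edgeR), that of Npas4 -0.18 ± 0.07 (adjusted p = 0.188), that of Fosb -0.17 ± 0.06 (adjusted p = 0.192), that of Maff -0.09 ± 0.06 (adjusted p = 0.477) and that of Btg2 0.04 ± 0.06 (adjusted p = 0.732). Npas4 and Fosb were lower by over 2 SE but did not pass the adjusted threshold, and a missed threshold does not show that the levels were equal. Over all genes, 2.23% were below and 0.442% above 2 h Bic, and 11.0% rose in the hour without TBOA. Of the 37 genes listed as transcription factors, 10 were below and 1 above 2 h Bic. Their median log2 difference was -0.15, and 29 rose in the hour without TBOA. Of the 30 synaptic effectors, 19 were below and 0 above 2 h Bic, with a median of -0.275, and 22 rose without TBOA. Of the secreted factors 12, and of the feedback regulators 10, were below 2 h Bic, with 0 above in either list. Of the 80 genes induced at 0.5 h, 23 were below and 5 above 2 h Bic, with a median of -0.151.

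**Figure D4:**
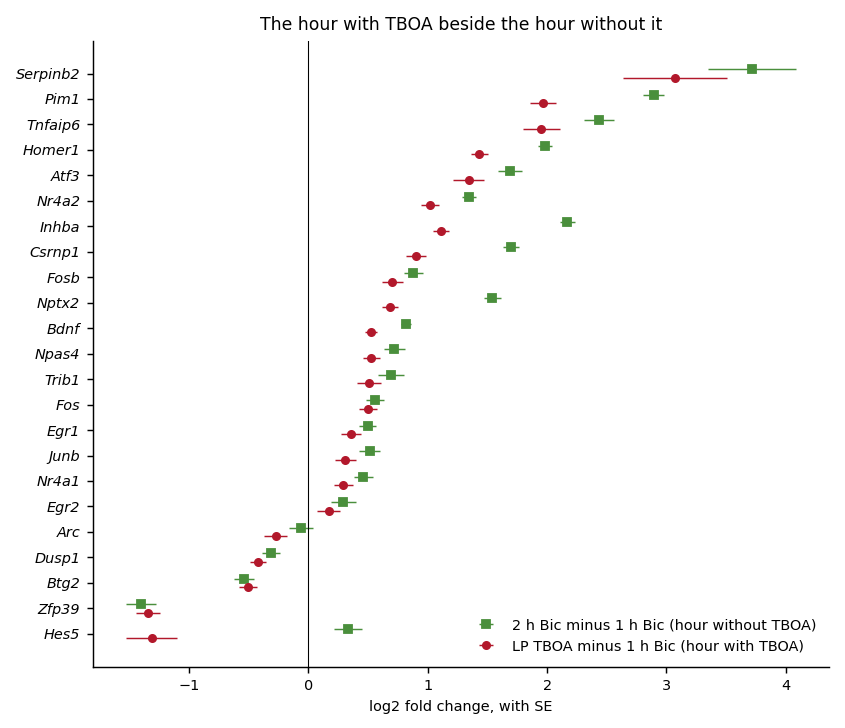
Log2 fold change from 1 h Bic, with SE (n = 5 pairs), for the hour with TBOA (red circles) and the hour without it (green squares) in 23 genes. Both series start from the same 1 h Bic libraries. Inhba, Csrnp1 and Nptx2 show wide gaps between the symbols, Fos and Btg2 narrow ones, and Hes5 lies on opposite sides of 0.

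The genes farthest below 2 h Bic were looked up after their values were seen. The 5 that lay more than 1 log2 unit below were Hes5, Mir132, Inhba, Mir212 and the noncoding RNA gene Lncppara. Mir132 lay at 4.17, 3.35, 2.90, 3.71 and 4.44 CPM at 1 h Bic, at 3.25, 3.40, 4.06, 3.16 and 4.01 CPM after TBOA and at 9.67, 5.53, 7.80, 6.38 and 8.86 CPM after 2 h Bic. Levels with TBOA thus overlapped those at its addition (log2 fold change -0.07, adjusted p = 0.789, edgeR) and lay below every library at 2 h Bic (log2 difference -1.12, adjusted p = 0.000385, edgeR). Mir212, its neighbour, had a log2 fold change of 0.08 from 1 h Bic and a log2 difference of -1.01 from 2 h Bic (adjusted p = 0.000424, edgeR). The libraries were made from poly-A RNA, so these reads come from the longer transcripts and not from the mature miRNAs. Both genes respond to CREB, and their mature products, from RefSeq (GRCm38.p6), are shown because they share a seed (bases 2 to 8, in capitals), the stretch by which a miRNA finds its targets.
mmu-miR-132-3p (chr11:75173723-75173744, plus strand): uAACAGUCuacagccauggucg
mmu-miR-212-3p (chr11:75173443-75173464, plus strand): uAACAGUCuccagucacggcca

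Penk, the precursor of enkephalin, and Gpr3, a receptor that raises cAMP by itself, showed the intermediate pattern of Inhba. Penk had a mean of 7.28 CPM at 1 h Bic, 13.7 ± 2.68 CPM after TBOA and 24.02 ± 3.64 CPM after 2 h Bic (SD, n = 5). Gpr3 had a mean of 8.22 CPM, 13.3 ± 1.70 CPM and 23.4 ± 2.88 CPM. Either was 0.82 log2 units below 2 h Bic, in 5 of 5 preparations and without overlap. Insm1, a zinc finger transcription factor of neuroendocrine cells, was not called against 1 h Bic and lay 0.85 log2 units below 2 h Bic (adjusted p = 0.00176, edgeR). Mir124a-1hg, the host transcript of another miRNA, had a course like that of Hes5 below, with a mean of 60.9 CPM at 1 h Bic, 41.3 ± 9.59 CPM after TBOA and 73.0 ± 14.7 CPM after 2 h Bic. It fell by 0.58 on the log2 scale with TBOA (adjusted p = 0.00364, edgeR), rose by 0.25 without it (adjusted p = 0.0404) and ended 0.84 below 2 h Bic with overlapping groups (adjusted p = 0.000568). Lncppara fell by 0.93 with TBOA (adjusted p = 0.00364, edgeR), was not called in the hour without it (0.08) and ended 1.00 below 2 h Bic without overlap (adjusted p = 0.00754).

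Genes above 2 h Bic were few and mostly differed little, with 7 of the 65 at 1 CPM or more differing by over 0.5 on the log2 scale. Several had fallen in the hour without TBOA and fell less or were not called with it. Ccdc112 had log2 fold changes from 1 h Bic of -0.91 without and -0.47 with TBOA, and Pskh1 of -0.89 and -0.43. Gm17066, Srek1ip1, 9430064I24Rik, Gm49797 and Eya1 fell without TBOA (-0.57, -0.56, -0.44, -0.34 and -0.30) and were not called with it. The largest difference was that of Cd14, a co-receptor for bacterial lipopolysaccharide, at a level near the floor of what was considered. With means of 0.642 CPM after 2 h Bic and 1.46 CPM after TBOA, Cd14 passed the limit of 1 CPM only through the TBOA libraries. Its levels were 0.503, 0.441, 0.675, 0.935 and 0.657 CPM after 2 h Bic and 1.47, 1.29, 1.15, 1.74 and 1.68 CPM after TBOA. The groups did not overlap, and the log2 difference was 1.19 ± 0.19 (SE, adjusted p = 0.00429, edgeR), beside changes from 1 h Bic of 1.28 with TBOA and 0.13 without it. Bag3, a co-chaperone of the heat shock response, had risen from 3.72 CPM at 1 h Bic to 7.53 ± 1.18 CPM with TBOA and 5.52 ± 1.29 CPM without it (log2 difference 0.44 ± 0.10, adjusted p = 0.0454, edgeR). Klf4, a zinc finger factor induced at 0.5 h, rose in 5 of 5 preparations from 62.1, 54.8, 64.5, 66.4 and 42.2 CPM to 95.2, 114, 94.9, 80.7 and 53.2 CPM. Its groups overlapped through the low levels of preparation 8, its log2 fold change was 0.58 ± 0.09 (adjusted p = 0.00108, edgeR), and it lay 0.37 log2 units above 2 h Bic (adjusted p = 0.00754, edgeR). Kcne4, a potassium channel subunit, was 0.54 log2 units above 2 h Bic (adjusted p = 0.0183, edgeR), at 1.77 to 6.78 CPM with TBOA and with overlapping groups.

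Among the falls, Hes5 (chr4:154960923-154962371), a transcriptional repressor downstream of Notch, went both ways with and without TBOA. It went from 1.91, 2.87, 1.83, 3.71 and 3.37 CPM at 1 h Bic to 0.395, 1.44, 1.23, 1.93 and 0.942 CPM after TBOA, and was at 1.96, 4.25, 2.57, 4.32 and 3.61 CPM after 2 h Bic. All 5 preparations fell with TBOA, to below every 2 h Bic library, although the levels overlapped those at 1 h Bic. Its log2 fold change was -1.31 ± 0.21 from 1 h Bic (adjusted p = 0.00134, edgeR) and -1.60 ± 0.17 from 2 h Bic (adjusted p = 0.000424), whereas from 1 h to 2 h Bic it was 0.33 (adjusted p = 0.0457). With TBOA it was also -1.37 log2 units from Control (adjusted p = 7.02e-05). Other genes of the Notch pathway, looked up after this value was seen, mostly differed less from 2 h Bic. Hes1, a relative of Hes5, had a log2 fold change of -0.06 from 1 h Bic and Hey1 of 0.06, neither called, while Dll1, a Notch ligand, fell by 0.75 with TBOA and by 0.48 in the hour without it. Hey1 was 0.22 log2 units below 2 h Bic (adjusted p = 0.0402, edgeR), and Hes1, Hey2, Hes6, Notch1, Dll1 and Nrarp were not called against it.

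The remaining large falls were those of zinc finger genes, and they were of the same order in the hour without TBOA. Zfp39 (chr11:58888153-58904225) fell from 6.79, 5.97, 6.26, 4.63 and 5.51 CPM to 2.84, 2.21, 2.21, 1.88 and 2.21 CPM. Every level with TBOA was below every level at 1 h Bic. Its log2 fold change was -1.35 ± 0.10 (adjusted p = 5.15e-06, edgeR), beside -1.40 in the hour without TBOA and a difference between the end points of 0.09 ± 0.15. Zkscan4 fell by 1.19 with TBOA and by 1.12 without it on the log2 scale, Zfp128 by 1.19 and 0.87, Zscan2 by 1.20 and 0.84, and Nup37, a nuclear pore protein and the only one of these that is no zinc finger gene, by 1.17 and 1.06. Zfp273, Zfp11, Zfp712, Zfp472, Zfp551 and Zfp759 fell by between 0.94 and 1.16 with TBOA, and none of these 11 differed from 2 h Bic by the test. Looked at as a family after these values were seen, 171 of 360 genes named Zfp (47.5%) fell and 6 rose, beside 7.88% and 5.83% of all genes, with a median log2 fold change of -0.247. Without TBOA the median was -0.289 and 197 fell, beside 12.5% of all genes. Against 2 h Bic, 12 of them were lower and 1 higher, beside 2.23% and 0.442% of all genes. Repeated finger domains make many of these genes near copies of each other, and reads that mapped to several places were not counted, so that single members are uncertain.

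Genes of glutamate transport, the process that TBOA blocks, were also followed. Slc1a2, the main astrocyte transporter and a target of TBOA, was at 557, 529, 595, 546 and 464 CPM at 1 h Bic and 569.7, 509, 526, 542 and 566 CPM after TBOA. The levels were intermingled (log2 fold change 0.02 ± 0.06, adjusted p = 0.896, edgeR). Slc1a1, the neuronal transporter, had a log2 fold change of -0.03 ± 0.05 (adjusted p = 0.725). Slc1a3, the second astrocyte transporter, was called higher, from 152, 257, 161, 267 and 156 CPM to 228, 258, 312, 267 and 217 CPM. In preparations 3 and 7 it hardly moved and in preparation 6 it rose most, the groups overlapped, and the call (log2 fold change 0.40 ± 0.11, adjusted p = 0.0314, edgeR) was lost without the block (0.213), without preparation 1 (0.177), without preparation 8 (0.102) and with DESeq2 and the block (0.0843). Of 16 genes of glutamate transport and metabolism, 4 rose (25%) and 0 fell, beside 5.83% and 7.88% of all genes. Their median log2 fold change was 0.0706. The others that rose were Slc7a11, the cystine/glutamate exchanger (0.46), Slc17a6, a vesicular glutamate transporter (0.24), and Slc38a2, a glutamine transporter (0.23), and Slc17a7, the main vesicular transporter, was not called (-0.13). The calls of Slc7a11, Slc17a6 and Slc38a2 were lost without the block (adjusted p = 0.101, 0.0842 and 0.0972, edgeR), and that of Slc38a2 without preparation 1, 3, 7 or 8 (0.053 to 0.0912).

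Receptors for glutamate and GABA formed lists too small to set against the 5.83% of all genes that rose and 7.88% that fell. Of the NMDA receptor subunits, 0 of 6 tested were called, with a median log2 fold change of -0.0395, and Grin2b, the member with the highest CPM, had -0.07 ± 0.07. Of the AMPA receptor subunits 0 of 4 were called, with Gria1 at 0.05 ± 0.05. Of 7 metabotropic receptors, Grm7, a presynaptic receptor of low glutamate affinity, fell from 67.0, 64.2, 65.0, 64.1 and 63.6 CPM to 51.8, 46.6, 46.04, 48.8 and 56.9 CPM. Its groups were apart (log2 fold change -0.37 ± 0.05, adjusted p = 0.000649, edgeR), and it fell by 0.33 in the hour without TBOA. Grm5 was not called (-0.05). Of 14 GABA type A receptor subunits tested, Gabrg1 (0.34) and Gabra3 (0.16) rose and Gabra2, the member with the highest CPM, had -0.01. The calls of Gabrg1 and Gabra3 were both lost without preparation 1 (adjusted p = 0.0815 and 0.145, edgeR).

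Spillover is known to be harmful to neurons when it lasts, so regulators of death and stress were followed as well. Of 34 cell death regulators tested, 6 rose (17.6%) and 2 fell (5.88%), beside 5.83% and 7.88% of all genes. Their median log2 fold change was 0.0311. Bcl2l11, which encodes the death-promoting Bim, rose from 10.1, 9.90, 11.9, 8.68 and 9.74 CPM to 18.3, 20.4, 17.2, 13.99 and 16.3 CPM. The groups did not overlap (log2 fold change 0.78 ± 0.08, adjusted p = 4.87e-05, edgeR), and the hour without TBOA gave 0.88. Pmaip1, which encodes Noxa, another member of this class, rose by 0.52, Mcl1, a survival factor, by 0.39, and Bbc3, which encodes the death-promoting Puma, fell by 0.29 on the log2 scale, a call lost without the block (adjusted p = 0.526, edgeR). Hrk, a further death-promoting member and the one of the list with the highest CPM, was not called and had a log2 fold change of -0.06. Against 2 h Bic, 1 of the 34 was higher and 0 were lower, beside 0.442% and 2.23% of all genes.

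Of 30 genes of the integrated and endoplasmic reticulum stress responses, 6 rose (20%) and 2 fell (6.67%), with a median of 0.0441. Over all genes tested, 5.83% rose and 7.88% fell. Ppp1r15a, which restores translation after stress, rose by 0.53 ± 0.06 (adjusted p = 8.5e-05, edgeR), Hspa5, the chaperone BiP, by 0.40 ± 0.06 (adjusted p = 0.00074), and Trib3, a target of Atf4 and Ddit3, fell by 0.50 (adjusted p = 0.0143). The call of Trib3 was lost without the block (adjusted p = 0.271, edgeR), with all 45 libraries in the fit (0.0731), with thinned libraries (0.0904) and without preparation 1 (0.0939), and that of Hspa5 without the block (0.18). Canx, a membrane chaperone, was not called (0.07). Of these 30 stress response genes, 0 differed from 2 h Bic in either direction, where 0.442% of all genes were above and 2.23% below it. Of 15 genes of the cytosolic heat shock response, 5 rose (33.3%) and 0 fell, with a median of 0.132, and besides Bag3 (1.01) these were Hspa1b (0.57), Dnajb4 (0.49), Dnajb1 (0.25) and Hsp90aa1. The call of Dnajb1 was lost without preparation 1 (adjusted p = 0.215, edgeR), 3 (0.162) or 7 (0.103), without the block (0.101) and with thinned libraries (0.0578). Hsp90ab1, the member with the highest CPM, was not called (0.08). Hspa1b and Hspa1a are near copies whose reads could be split or lost.

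Of 7 mitochondrially encoded mRNAs tested, mt-Co1 (0.27), mt-Nd1 (0.20) and mt-Nd2 (0.18) were called higher, with adjusted p between 0.0216 and 0.0463, and mt-Cytb (0.23) was not. None of these 3 calls held without the block, and over all genes tested 5.83% rose and 7.88% fell. Of 22 targets of SRF and the actin cytoskeleton, 4 rose and 2 fell, with a median of 0.0815, and Actb had -0.06. Tagln, an actin-binding protein of smooth muscle, was among those that rose (0.63), as was Tpm4, a tropomyosin (0.42). The call of Tagln was lost without the block (adjusted p = 0.333, edgeR), with all 45 libraries (0.0574) and without preparation 3 (0.051).

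**Figure D5:**
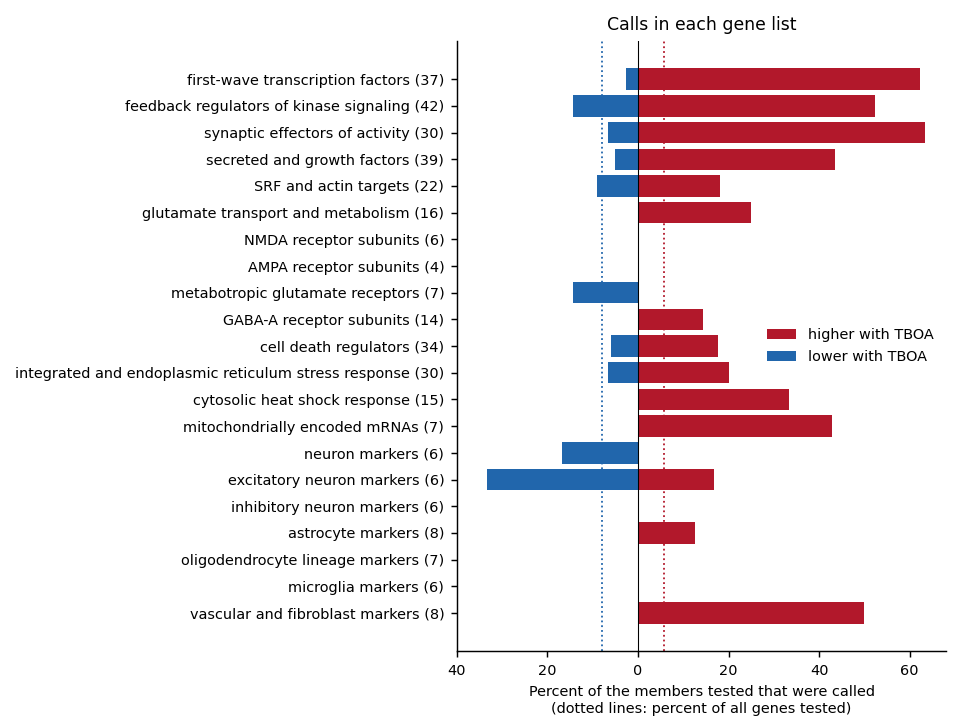
Percent of the tested members of 21 gene lists that were higher (red, to the right) or lower (blue, to the left) after TBOA than at 1 h Bic, with the number tested in brackets. Dotted lines mark the percent of all genes tested that were higher (5.83%) and lower (7.88%), and the first 4 lists reach between 43.6% and 63.3% higher.

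The cultures were mixed, and markers of the cell types they could hold were measured in the same libraries. Over all genes tested, 5.83% were higher and 7.88% lower after TBOA. The 6 neuron markers summed to between 6783 and 7291 CPM at 1 h Bic and between 7055 and 7614 CPM after TBOA, and 1 of them, Tubb3, a neuronal tubulin, fell (-0.25, adjusted p = 0.00754, edgeR, 0.221 without the block and 0.0593 without preparation 1), while Stmn2 was not called (0.10). Of 6 markers of excitatory neurons, Neurod6 (-0.24) and Camk2a (-0.17) fell and Slc17a6 rose. Without the block these 3 calls were lost (adjusted p = 0.0632, 0.269 and 0.0842, edgeR), and that of Camk2a also without preparation 1 (0.167), 3 (0.135) or 7 (0.127), with all 45 libraries (0.0968), thinned libraries (0.0573) and DESeq2 size factors (0.0538). Of 6 markers of inhibitory neurons 0 were called, with Gad1 at 0.20. Gad1 was called higher without preparation 6 (adjusted p = 0.000256, edgeR), with all 45 libraries (0.048), with every gene with a read kept (0.00101) and with DESeq2 and the block (0.042). The 8 astrocyte markers summed to between 972 and 1514 CPM at 1 h Bic and between 1251 and 1630 CPM after TBOA, with a median log2 fold change of 0.308 and only Slc1a3 called. Microglia markers were close to absent, with sums of 6.32 to 9.87 CPM before and 7.21 to 10.03 CPM after TBOA over 8 genes, and 0 of 6 tested were called, with Csf1r at 0.08. Markers of the oligodendrocyte lineage summed to between 120.5 and 194.5 CPM and between 134.0 and 205.5 CPM, Sox10 was below 0.1 CPM, and 0 of 7 tested were called, with Olig1 at 0.28. Of 8 vascular and fibroblast markers tested, Lum (0.47), Rgs5 (0.39), Col1a1 (0.34) and Dcn (0.20) were called higher, and the endothelial marker Cldn5 was below 0.1 CPM. All 4 calls were lost without preparation 1 (adjusted p = 0.0898, 0.134, 0.0795 and 0.101, edgeR) and without the block (0.486, 0.0714, 0.64 and 0.291), and those of Rgs5 and Dcn without preparation 7 (0.0625 and 0.066). The summed level of this list was 70.9 to 164.4 CPM before and 85.5 to 178.4 CPM after TBOA, and Col1a2 was not called (0.29). Whether these shifts had a part in the results of Slc1a3, Tagln or the other genes that glia and fibroblasts express was not tested.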

How the data were processed

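Poly-A RNA of 45 libraries was sequenced as strand-specific libraries, and the 10 libraries of 1 h Bic and LP TBOA, with the 15 of Control, 0.5 h Bic and 2 h Bic of the same preparations, were used here. Per the labels and the study's methods, the authors demultiplexed reads with bcl2fastq (2.20.0.422), aligned them with STAR (2.5.4b) to GRCm38 with the Ensembl annotation and counted reads per gene on the reverse strand with featureCounts (1.6.5), multimapping reads and those shared by more than 1 gene left uncounted. The values the authors deposited are raw counts for 54532 gene IDs, without normalization. Symbols (54409 IDs matched) and coordinates came from the GENCODE annotation of GRCm38, promoters and miRNAs from RefSeq (GRCm38.p6).

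For each comparison the 10 libraries of its 2 groups were filtered with filterByExpr, scaled by TMM and tested with edgeR (4.0.16, R 4.3.3) by the quasi-likelihood test (glmQLFit, glmQLFTest) with condition and culture preparation as terms, and p-values were adjusted by Benjamini and Hochberg over all genes tested (called: under 0.05). The labels give the replicate number as the culture preparation. Deviations from the group means of same-numbered libraries correlated at 0.404, 0.423, 0.522 and 0.593 in preparations 1, 3, 7 and 8 and at -0.211 in preparation 6 (mean 0.346, and -0.0843 for different numbers, over 13564 genes), and 0 libraries were identical. With 5 pairs the precision of a value is that of the spread between preparations, and at low counts that of the depth. CPM are TMM-scaled counts from edgeR, with means ± SD over libraries, and a log2 fold change is given with its SE. Named genes were the 12 largest rises and 12 largest falls among called genes with a mean of at least 1 CPM and 5 of 5 preparations in 1 direction, up to 4 called members and 1 member not called of each of 21 lists, and a set of genes by name. Genes compared by their difference from 2 h Bic were chosen by the same limits after their values were seen. The members and lists were chosen with earlier results of these data known. The fits were tested on simulated data. Alternatives were a fit without the block, a filter of 1 read, DESeq2 (1.42.0) size factors and Wald tests, all 45 libraries in 1 fit, libraries thinned to the lowest total and leaving out each preparation. Figures were drawn with matplotlib (3.10.9).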

Additional observations from a re-analysis of the deposited data

Results flagged for a closer look

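The log2 ratios of the 100 named genes and the total counts of the 2 groups were looked at, 102 items in all. In 9 of them (8.8%), each a gene, 1 preparation's log2 ratio of LP TBOA to 1 h Bic stood apart from the other 4, where chance gives about 1 in 20. Preparation 3 stood apart in Zfp184 (2.0, the others 1.16 to 1.39), in Nr4a2 (1.45, the others 0.82 to 0.95) and in Bdnf (0.75, the others 0.42 to 0.51), all of them called higher, and in the microglia marker Csf1r (-0.51, the others 0.10 to 0.33), which was not called. Preparation 6 stood apart in the fibroblast marker Col1a2 (0.97, the others 0.02 to 0.25), the transporter gene Slc1a1 (-0.18, the others -0.01 to 0.03) and the AMPA receptor gene Gria1 (-0.15, the others 0.08 to 0.12), which were not called, and in Neurod6 (-0.42, the others -0.24 to -0.16), which was called lower. Preparation 8 stood apart in Slc17a6 (0.37, the others 0.17 to 0.22), called higher.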

How the results depend on the processing

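Counts of called genes depended on the fit. Under the 13 alternatives, 0 of the 100 named genes changed direction while called in the main fit or in the alternative. Changes of sign in genes called in neither were not counted. Of the 77 named genes called in the main fit, 49 stayed called in each alternative that gave them an adjusted p, and 28 lost the call in at least 1. Among the latter were Thbd (no replicate block) and Zfp472 (thinned libraries, log2 fold change -0.69, adjusted p = 0.0541, edgeR) of the 24 largest changes. Named genes not called in the main fit gained a call 26 times over the alternatives, among them Arc, Jund, Vgf, Gad1, mt-Cytb, Olig1 and Col1a2.

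For TBOA against 1 h Bic (911 higher, 1230 lower), leaving out the replicate block and so the pairing gave 406 higher and 702 lower genes, with the 1-read filter as well 445 and 650, and DESeq2 without the block and with the 1-read filter 538 and 854. For 2 h against 1 h Bic (1686 higher, 1921 lower) these 3 fits gave 792 and 976, 785 and 867, and 900 and 1100. For TBOA against 2 h Bic (69 above, 348 below) they gave 7 and 97, 17 and 174, and 38 and 277, while the 1-read filter with the block gave 355 and 705, all 45 libraries 156 above and thinned libraries 41 above. For TBOA against Control (1206 above, 1257 below), all 45 libraries gave 2056 and 2288. For 0.5 h Bic against Control (80 higher), the 1-read filter with the block gave 147 and all 45 libraries 126. The cause of these differences was not tested.

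Leaving out 1 preparation at a time gave 474 to 1287 higher and 620 to 1459 lower genes for TBOA against 1 h Bic, 1324 to 1525 and 1530 to 1777 for 2 h against 1 h Bic, 8 to 305 above and 112 to 619 below for TBOA against 2 h Bic, 839 to 1453 above and 719 to 1613 below for TBOA against Control, 55 to 103 higher for 0.5 h Bic, and 34 to 46 higher and 7 to 9 lower of the genes induced at 0.5 h. For TBOA against Control the lowest counts of genes below came without preparation 7 (719) and without preparation 8 (797). Thinning all libraries to the lowest total left 769 higher and 881 lower genes for TBOA against 1 h Bic.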
